A study of Mus musculus with 2 samples.

Results

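The endothelial compartment of adult mouse liver was followed through 34 marker genes, 12 of liver sinusoidal endothelium and 22 of vascular endothelium in general, of 43346 genes listed in the deposited tables. The members were set by symbol, and all 34 were found through their stable gene identifiers. The samples are livers of adult C57BL/6J mice aged 8 weeks, pooled from male and female littermates, with no treatment named. Poly-A RNA above 200 nt, depleted of ribosomal RNA and with spike-in RNAs added, was read strand-specifically in pairs of 76 nt. The 1 group holds 2 libraries, biological replicates 1 and 2. They share 1 donor identifier, and the sources used here do not say whether separate animals gave them. Every difference below is therefore between these 2 libraries and not between conditions. Levels are in TPM, the deposited read estimate per effective length on a scale with the same sum in each library. The libraries held 60770411 and 61688916 estimated reads, so that 1 read on 1000 bases was worth 0.0205 and 0.0204 TPM in replicates 1 and 2. In whole tissue, fewer cells of a type and less RNA per cell cannot be told apart.

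Liver sinusoids are lined by a fenestrated endothelium that has no continuous basement membrane. Its cells take up waste macromolecules from blood through scavenger receptors, lectins and Fc receptors, and they send growth factors to the hepatocytes beside them. Endothelium everywhere carries receptor kinases for vascular endothelial growth factors (VEGF) and angiopoietins, together with its own cadherin and a small set of transcription factors of the SOXF, ETS and Krüppel-like families. The sinusoidal genes were kept apart from the general vascular genes throughout, because the latter are also transcribed in the portal and central vessels of the organ.

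All members had reads in both libraries, and 32 of 34 reached TPM 1 in both. The exceptions were Flt1, at 0.96 and 1.08 TPM in replicates 1 and 2, and Emcn, at 0.68 and 0.97 TPM. Genes of both lists were thus read in both libraries, with no member at 0. The 12 sinusoidal genes together held 0.0232% ± 0.00513 of all TPM (SD, n = 2), with a median of 19.03 TPM. The 22 general vascular genes held 0.0389% ± 0.00482 (SD, n = 2), with a median of 4.66 TPM. For scale, the median of the 10176 detected protein-coding genes was 10.79 TPM. The typical sinusoidal gene was above that median and the typical vascular gene below it.

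Members spanned from 115.72 TPM for Plvap to 0.825 TPM for Emcn as the mean of both libraries. In this order Plvap was followed by Aqp1, Egfl7, Eng, Clec4g, Stab1, Ehd3, Fcgr2b, Oit3 and Dnase1l3. The ranges of neighbours overlapped between the libraries in 28 of 33 steps. Such overlap does not decide the order, because both genes of a step were read in the same 2 libraries. Some overlapping neighbours kept their order in each library, as Egfl7 over Eng did, and others, as Aqp1 and Egfl7, did not. The 5 steps without overlap were Plvap over Aqp1, Stab1 over Ehd3, Erg over Mmrn2, Mmrn2 over Nos3, and Tek over Flt1. Across the 34 genes the log2 TPM of the 2 libraries had a Pearson r of 0.985 and a Spearman rho of 0.973, given as a description because the points share their libraries and genes are not independent replicates.

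**Figure D1:**
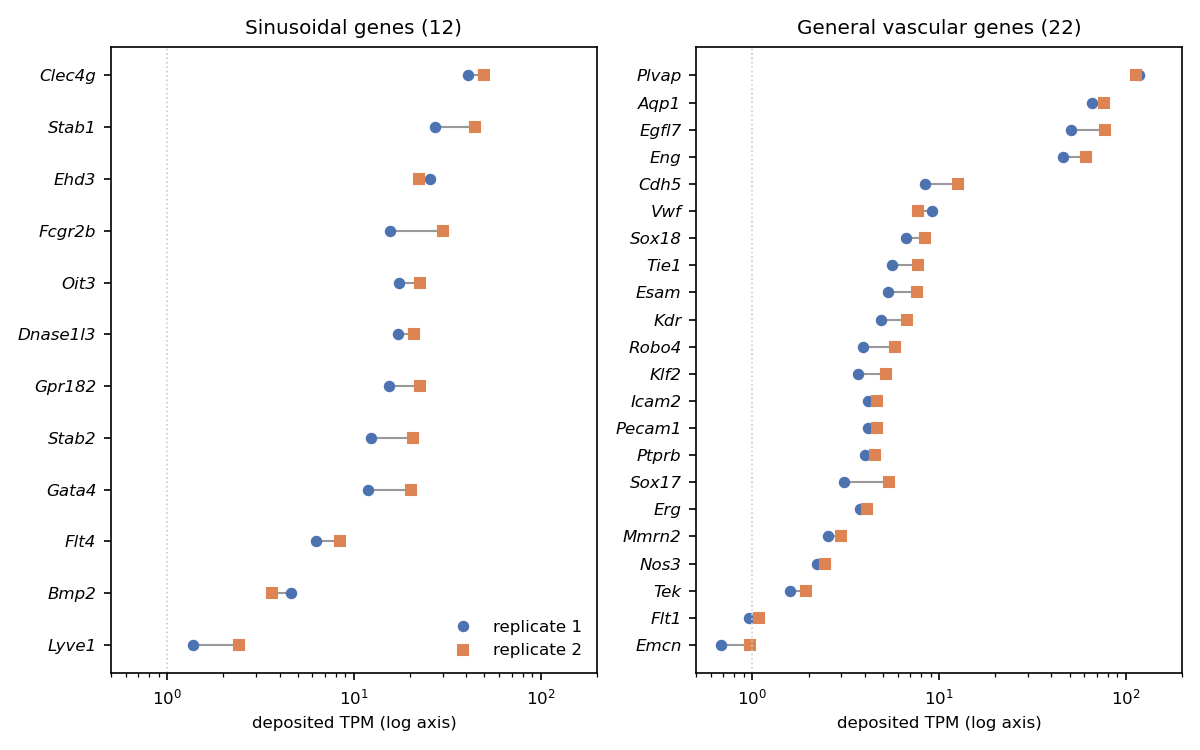
Deposited TPM of each member in replicate 1 (circles) and replicate 2 (squares) on a log axis, with the 12 sinusoidal genes on the left and the 22 general vascular genes on the right, each ordered by mean. The dotted line marks TPM 1, which Flt1 in replicate 1 and Emcn in both libraries fall short of, and the squares lie to the right of the circles for all but Bmp2, Ehd3, Plvap and Vwf.

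Replicate 2 had the higher TPM for 30 of the 34 members. After the scaling given next, 30 members had more reads in replicate 2, beside 49.7% of all genes tested. To ask which of these gaps exceeded counting error, reads were scaled by TMM, a trimmed mean of gene ratios, and the 2 read numbers of each gene were set against each other in an exact binomial test, two-sided, with p-values adjusted by Benjamini and Hochberg over all 14533 genes tested. That test called 21 members higher in replicate 2, where 28% of all genes tested were called in that direction. It called 3 members, Plvap, Ehd3 and Bmp2, higher in replicate 1, where 29.7% of all genes were. The other 10 were not called. The 10 sinusoidal genes called higher in replicate 2, with 2 called higher in replicate 1, left none uncalled, while the vascular list split into 11, 1 and 10. The median log2 ratio of replicate 2 over replicate 1 was 0.48 for the sinusoidal list (range -0.46 to 0.84) and 0.19 for the vascular list (range -0.18 to 0.58), beside -0.0041 over all genes tested. Whether the 2 lists differ from each other was not tested.

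With a further demand of at least 1.5-fold, 4 members were called higher in replicate 2, beside 10.7% of all genes, and 0 in replicate 1, beside 5.94%. The 4 were Fcgr2b, Lyve1, Gata4 and Stab1, all on the sinusoidal list, and all also known from other cells of the body. The scaling shifted every ratio alike. Scaling by total reads moved the median of all genes to 0.13 and by spike-in totals to 0.15. With these, 64.0% and 67.5% of all genes tested stood higher in replicate 2. By total reads 24 members were called higher in replicate 2 (40.7% of all genes) and 3 in replicate 1 (18%). By spike-ins the counts were 26 (44.1%) and 2 (15.8%). The same 21 members stayed higher in replicate 2 under all 3 scalings, and Ehd3 and Bmp2 stayed higher in replicate 1. Over all genes edgeR put the coefficient of variation between the libraries at 24.1%. A gap can therefore pass a test of counting error at this depth without exceeding the usual spread between them. This limit covers all members, also those with the largest ratios and the smallest p-values. No member's ratio was tested against that spread.

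**Figure D2:**
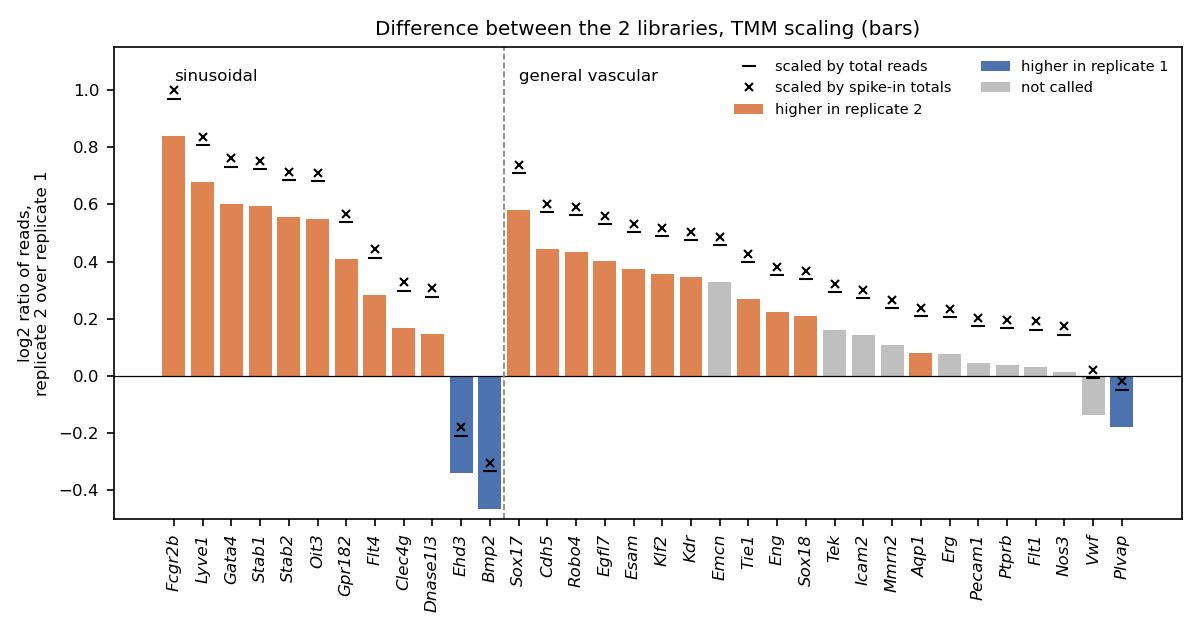
Log2 ratio of reads, replicate 2 over replicate 1, for each member under TMM scaling (bars, coloured by the call of the exact test), under total-read scaling (dashes) and under spike-in scaling (crosses). Fcgr2b has the highest bar at 0.84 and Bmp2 the lowest at -0.46, and the bars of the 10 uncalled members are grey.

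Among the 6 clearance genes of the sinusoid, 5 were called higher in replicate 2 and 1 in replicate 1, beside 28% and 29.7% of all genes tested. Stab1 and Stab2 encode stabilins, large scavenger receptors for hyaluronan, modified lipoproteins and other waste. Stab1 (chromosome 14, 31139013 to 31168641, minus strand, GRCm38) stood at 27.29 and 44.8 TPM in replicates 1 and 2, from 4072 and 6828 reads. Stab2 (chromosome 10, 86841198 to 87008025, minus strand) stood at 12.29 and 20.65 TPM, from 2612 and 4263 reads. Both were higher in replicate 2, at log2 ratios of 0.59 and 0.55 with adjusted p = 3.95e-97 and 4.96e-54 by the exact test. Their proportion held between the libraries, with Stab1 at 2.22 times the TPM of Stab2 in replicate 1 and 2.17 times in replicate 2.

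Clec4g, a C-type lectin of sinusoidal cells (chromosome 8, 3707064 to 3720651, minus strand), was the most abundant gene of the sinusoidal list. It reached 40.96 and 49.63 TPM, from 2078 and 2595 reads, a log2 ratio of 0.17 with adjusted p = 0.000201 by the exact test. Fcgr2b, the inhibitory IgG receptor that takes up small immune complexes (chromosome 1, 170958617 to 170976547, minus strand), had the largest ratio of all members. It read 15.62 TPM in replicate 1 and 30.17 in replicate 2, from 1297 and 2579 reads, 1.79-fold after scaling (adjusted p = 1.69e-67, exact test). Fcgr2b was also the only member whose deposited count carried a posterior SD above 0, at 1.26 and 0.58 reads, so sharing of its reads with other genes was small. Lyve1, a hyaluronan receptor also made by lymphatic vessels, was the weakest sinusoidal gene at 1.38 and 2.43 TPM, from 163 and 290 reads (1.60-fold, adjusted p = 3.98e-06, exact test). Ehd3, which works in the recycling of endocytic vesicles, went the other way at 25.55 and 22.23 TPM, a log2 ratio of -0.34. Ehd3 was the only gene of the group called higher in replicate 1, and the log2 ratios of the other 5 ran from 0.17 to 0.84.

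The remaining sinusoidal genes are secreted factors, receptors and a transcription factor. Oit3, a secreted protein with a zona pellucida domain, stood at 17.38 and 22.62 TPM, from 1607 and 2615 reads. Its reads were 1.46-fold higher in replicate 2 after scaling, although its TPM differed less. Dnase1l3, a secreted nuclease that digests DNA of dying cells, gave 17.16 and 20.92 TPM from 3815 and 4695 reads. Gpr182, an atypical chemokine receptor, gave 15.46 and 22.58 TPM from 2838 and 4187 reads. All these genes were called higher in replicate 2, at log2 ratios of 0.55 for Oit3, 0.15 for Dnase1l3 and 0.41 for Gpr182. Flt4, the receptor for VEGF-C and VEGF-D that lymphatic vessels share with sinusoids, read 6.25 and 8.41 TPM with a log2 ratio of 0.28. Bmp2, a ligand that raises hepcidin in hepatocytes, was the member most in favour of replicate 1, at 4.58 and 3.65 TPM from 751 and 605 reads (log2 ratio -0.46, adjusted p = 1.75e-08, exact test).

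The receptor kinases of endothelium were transcribed at modest levels. Kdr encodes VEGFR2, the main signalling receptor for VEGF-A (chromosome 5, 75932827 to 75978458, minus strand), and stood at 4.86 and 6.73 TPM from 1318 and 1861 reads. Flt1, on the same chromosome at 147561604 to 147726011, encodes VEGFR1, which binds VEGF-A tightly and signals weakly. Its 309 and 351 reads gave a log2 ratio of 0.03 and adjusted p = 0.841 by the exact test. Kdr was called higher in replicate 2 at 0.35. Per length, Kdr exceeded Flt1 5.06 times in replicate 1 and 6.23 times in replicate 2, and Flt4 exceeded Kdr 1.29 and 1.25 times. Flt4 was thus the most abundant of the 3 VEGF receptor genes in both libraries.

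Tek and Tie1 encode the angiopoietin receptor and its partner without a well-known ligand. Tie1 reached 5.6 and 7.67 TPM from 1044 and 1397 reads and was called higher in replicate 2 at a log2 ratio of 0.27. Tek stayed lower at 1.6 and 1.94 TPM, from 320 and 398 reads, and was not called (adjusted p = 0.195, exact test). Tie1 had 3.5 and 3.95 times the TPM of Tek. Ptprb, the phosphatase that acts on the Tek receptor and on VE-cadherin, gave 4.0 and 4.52 TPM from 2284 and 2603 reads and was not called (adjusted p = 0.463, exact test). Of the 6 kinase and phosphatase genes, Kdr, Flt4 and Tie1 were called higher in replicate 2, beside 28% of all genes. None was called higher in replicate 1, beside 29.7%, and Flt1, Tek and Ptprb were not called. By total reads and by spike-ins Tek and Ptprb were called higher in replicate 2 as well. That made 5 of 6, where 40.7% and 44.1% of all genes were called.

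The ligands of these receptors were read from a list of partners. Vegfa stood at 150.98 and 243.76 TPM, from 8206 and 12217 reads, a log2 ratio of 0.42. Vegfa thus had 31.1 and 36.2 times the TPM of Kdr, which came to 10.9 and 11.5 times when every read was placed on the longest transcript model of its gene. Vegfb followed at 14.07 and 17.56 TPM, Vegfc, a ligand of Flt4, at 1.34 and 1.37, and the co-receptor Nrp1 at 10.02 and 14.13. Of the 6 VEGF partners tested, 4 were called higher in replicate 2, beside 28% of all genes, and 2 were not called. The angiopoietin genes sat close to the floor. Angpt2, a context-dependent ligand of Tek, had 9 and 64 reads, Svep1, a matrix protein that binds the Tie1 receptor, had 59 and 93, and Angpt1, the activating ligand, had 14 and 6. Among the 4 genes of the angiopoietin list, Angpt2 alone was called (log2 ratio 2.61, adjusted p = 1.73e-09, exact test), beside 28% of all genes. Its levels were 0.05 and 0.39 TPM, and it passed the read filter through replicate 2, the library where it was higher. By total reads and by spike-ins 2 of the 4 were called higher in replicate 2, where 40.7% and 44.1% of all genes were.

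Junction and surface genes held both the highest and the lowest member of the whole set. Plvap, which forms the diaphragms of fenestrae and caveolae (chromosome 8, 71497765 to 71511752, minus strand), was nearly level at 117.49 and 113.95 TPM from 10464 and 10281 reads. It was called higher in replicate 1 under TMM (log2 ratio -0.18, adjusted p = 6.96e-18, exact test) and was not called under spike-in scaling (adjusted p = 0.435). Aqp1, a water channel also found in bile duct cells and red cells, had 65.67 and 76.24 TPM and a log2 ratio of 0.08. Eng, the endoglin co-receptor for BMP9, had 46.11 and 61.03 TPM from 6825 and 8851 reads, a log2 ratio of 0.22. These 3 genes stood above 82.8% or more of the detected protein-coding genes. Of the other 7 in this group, Gpr182 was above the median of those genes and 6 were below it.

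Cdh5, the cadherin of endothelial junctions, stood at 8.44 and 12.62 TPM from 1563 and 2361 reads (log2 ratio 0.44, adjusted p = 1.84e-20, exact test). Pecam1, the platelet-endothelial adhesion molecule, gave 4.15 and 4.65 TPM from 599 and 686 reads and was not called (adjusted p = 0.678, exact test). The call for Pecam1 depended on the scaling, and by spike-ins it was called higher in replicate 2 (adjusted p = 0.0219). Icam2, a leukocyte adhesion molecule on the same chromosome 11 as Pecam1, gave 4.18 and 4.64 TPM and was not called either, except by spike-ins (adjusted p = 0.0484). Esam, a junctional immunoglobulin protein, and Robo4, a receptor that steadies vessels, lie near each other on chromosome 9. Esam stood at 5.32 and 7.58 TPM and Robo4 at 3.91 and 5.82, and both were called higher in replicate 2 at log2 ratios of 0.37 and 0.43. Emcn, a sialomucin of capillaries and veins, had 63 reads in replicate 1 (95% exact Poisson interval 48.4 to 80.6) and 88 in replicate 2 (70.6 to 108). Those intervals overlap, and a difference in Emcn was not detectable at this depth.

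Egfl7, Vwf and Mmrn2 are secreted by endothelium, and Nos3 makes its nitric oxide. Egfl7, which binds the vessel matrix (chromosome 2, 26580014 to 26593120, plus strand), stood at 50.81 and 77.26 TPM from 1607 and 2357 reads, a log2 ratio of 0.40 with adjusted p = 4.37e-17 by the exact test. Vwf, the adhesive protein that captures platelets, gave 9.12 and 7.73 TPM from 713 and 720 reads and was not called (adjusted p = 0.113, exact test). Its ratio changed sign with the scaling, from -0.14 under TMM to 0.021 under spike-ins. Mmrn2, a matrix protein of the vessel wall, had 2.53 and 3.0 TPM, and Nos3 had 2.21 and 2.46. Neither was called under TMM, and Mmrn2 was called higher in replicate 2 by total reads and by spike-ins. For Nos3 the log2 ratio of 0.01 came from 425 and 477 reads.

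Egfl7 is also the host of an endothelial microRNA, miR-126a, whose sequence is shown because it lies inside a gene that these libraries measured. Its mature 3′ arm lies at chr2:26591402-26591423 on the plus strand (RefSeq, GRCm38.p6), within an exon of 1 of the 19 Egfl7 models in M21, Egfl7-206, a retained-intron model. The seed, bases 2 to 8, is in capitals.
mmu-miR-126a-3p: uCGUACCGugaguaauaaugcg
Egfl7-206 took 50.61 and 78.53 reads, 2.55% of the gene's TPM in each library. The row of the hairpin itself was listed at 0 reads with an effective length of 0, so these libraries could not count it.

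The 5 transcription factors were Gata4, Sox17, Sox18, Klf2 and Erg, and 4 of them were called higher in replicate 2, beside 28% of all genes. Gata4, which directs sinusoidal identity during development and is also made in other organs, had the highest level, at 11.86 and 20.17 TPM from 1793 and 3023 reads (1.52-fold, adjusted p = 1.67e-44, exact test). The SOXF factors Sox18 and Sox17 stood at 6.66 and 8.43 TPM and at 3.1 and 5.41 TPM. Sox17 had the larger log2 ratio, 0.58 against 0.21, from 222 and 369 reads. Klf2, induced by flow, gave 3.7 and 5.2 TPM with a log2 ratio of 0.36. Erg, an ETS factor, was not called, at 3.79 and 4.11 TPM from 293 and 343 reads (adjusted p = 0.614, exact test).

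ETS and GATA proteins bind short core motifs, so the letters AGGAAG (reverse complement CTTCCT) and GATAAG (reverse complement CTTATC) were searched on both strands of the 250 bases before each RefSeq start (GRCm38.p6). The motifs share no letters that would let 1 match count as the other. The promoter table matched 17 of the 34 members, with 21 start windows. AGGAAG or its complement was in 12 of the 21 windows (57.1%), from 11 genes, and in 9686 of all 32851 promoters (29.5%). GATAAG or its complement was in 1 window, of Erg (4.76%), against 2151 promoters (6.55%). Windows of 1 gene are not independent of each other, and a match in the letters is not a binding site. Of the 21 windows, 7 lay wholly before their M21 gene, and 5 of these held AGGAAG or its complement, from Stab1, Clec4g, Eng, Flt1 and Aqp1. The windows of Tek and Erg among the 7 held no match. Those of Stab1 and Clec4g, from the sinusoidal list, and Eng and Flt1, from the vascular list, are shown 5′ to 3′ on the minus strand for Stab1, Clec4g and Flt1 and on the plus strand for Eng, with each match in capitals. They were chosen to set genes with a called ratio beside Flt1, which had none. The window of Aqp1, a called gene, is not shown, nor are those of Tek and Erg, which were not called under TMM. Their positions are chr14:31168642-31168891 for Stab1, chr8:3720652-3720901 for Clec4g, chr2:32646345-32646594 for Eng and chr5:147726012-147726261 for Flt1.
Stab1: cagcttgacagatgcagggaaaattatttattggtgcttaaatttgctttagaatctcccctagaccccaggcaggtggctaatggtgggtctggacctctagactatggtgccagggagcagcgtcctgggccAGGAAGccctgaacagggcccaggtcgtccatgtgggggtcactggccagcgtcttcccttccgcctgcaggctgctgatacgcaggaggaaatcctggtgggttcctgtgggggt
Clec4g: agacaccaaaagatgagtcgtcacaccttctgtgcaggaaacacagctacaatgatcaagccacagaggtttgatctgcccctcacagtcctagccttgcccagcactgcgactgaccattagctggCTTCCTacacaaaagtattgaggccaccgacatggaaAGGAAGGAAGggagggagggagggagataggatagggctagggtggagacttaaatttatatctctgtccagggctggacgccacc
Eng: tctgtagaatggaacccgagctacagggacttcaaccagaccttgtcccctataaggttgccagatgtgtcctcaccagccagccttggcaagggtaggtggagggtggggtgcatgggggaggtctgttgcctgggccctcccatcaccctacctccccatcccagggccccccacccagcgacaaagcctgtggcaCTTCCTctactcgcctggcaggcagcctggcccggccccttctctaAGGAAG
Flt1: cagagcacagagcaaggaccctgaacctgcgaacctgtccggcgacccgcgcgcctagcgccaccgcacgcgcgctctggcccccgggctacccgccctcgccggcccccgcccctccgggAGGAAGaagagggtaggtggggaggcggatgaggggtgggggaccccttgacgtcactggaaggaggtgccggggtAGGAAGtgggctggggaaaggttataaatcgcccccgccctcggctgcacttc
Clec4g held 3 matches, of which a pair overlap, Eng and Flt1 held 2 each, and Stab1 held 1. Whether these matches bear on the level of any gene was not tested.

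Other pathways that reach these cells were read from lists of partners. In the BMP list, 4 of 9 genes were called higher in replicate 2, none was called higher in replicate 1, and 5 were not called, beside 28% and 29.7% of all genes. By total reads and by spike-ins 7 of the 9 were called higher in replicate 2, where 40.7% and 44.1% of all genes were. Id3 and Id1, early targets of BMP signalling, stood at 151.4 and 235.18 TPM and at 16.08 and 28.42 TPM, log2 ratios of 0.42 and 0.71. Acvrl1, the endothelial type I receptor for BMP9, gave 1.96 and 3.48 TPM with a log2 ratio of 0.99, while Gdf2, which encodes BMP9 itself, was not called at 4.07 and 4.65 TPM. Id3 and Id1 are transcribed by many cell types, so their levels do not belong to endothelium alone. In the Notch list, 2 of 8 genes were called higher in replicate 2, 1 in replicate 1, and 5 were not called, a share close to that of all genes in the first direction. By the other scalings 5 of 8 were called higher in replicate 2 and 1 in replicate 1. Notch1 led at 7.62 and 8.34 TPM and Dll1 followed at 5.92 and 5.93, neither called under TMM. Dll4, an endothelial Notch ligand, was called at 2.61 and 3.55 TPM. Jag2, the 1 gene called higher in replicate 1, had 26 and 10 reads and is named after its values were seen.

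The factors by which sinusoidal and central vein endothelium act on hepatocytes were sparse. Wnt2 and Wnt9b, Wnt ligands of the central part of the lobule, were called higher in replicate 1. Wnt2 stood at 3.43 and 1.63 TPM from 298 and 142 reads, a log2 ratio of -1.22 with adjusted p = 7.57e-17 by the exact test. Wnt9b had 160 and 80 reads, a log2 ratio of -1.15. F8, coagulation factor VIII made by liver endothelium, was called higher in replicate 2 with 180 and 327 reads. Hgf, a growth factor of sinusoidal and stellate cells, was not called at 1.47 and 1.64 TPM. Rspo3, which amplifies Wnt signals near the central vein, was not called either, at 1.19 and 1.42 TPM. This list of 5 thus gave 1 called higher in replicate 2, 2 higher in replicate 1 and 2 not called. Over all partners, 12 of 32 tested were called higher in replicate 2, 3 in replicate 1, and 17 were not called, with a median log2 ratio of 0.11, beside 28% and 29.7% of all genes. By total reads and by spike-ins 19 were called higher in replicate 2 (40.7% and 44.1% of all genes), 3 in replicate 1, and 10 were not called. Of 22 further endothelial genes, 12 were called higher in replicate 2, 2 in replicate 1 (Cd36 and Sox7, named after their values were seen), and 8 were not called. By total reads and by spike-ins 1 of them was higher in replicate 1. Their median was 0.23, close to the 0.25 of the 34 members. S1pr1, a receptor for sphingosine 1-phosphate, led this list at 65.5 and 82.8 TPM, and Tspan7 followed at 15.42 and 23.2. Cd36, a fatty acid transporter also made by other liver cells, had 10.02 and 2.29 TPM.

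A gene's TPM adds the estimates of its transcript models, and short models turn few reads into much TPM. With every read of a gene placed on its longest model, the order of the members kept a Spearman rho of 0.94 with the deposited order. Single genes moved further. Deposited TPM was 4.98 times the longest-model value for Vwf, 2.66 times for Egfl7, 2.53 times for Stab1, 2.16 times for Sox17, 1.95 times for Fcgr2b and 1.89 times for Stab2. Vwf moved from place 15 to 31 and Stab1 from 6 to 11. The ratio of Stab1 to Stab2 changed to 1.61 and 1.65 in replicates 1 and 2, and that of Sox18 to Sox17 from 2.15 and 1.56 to 4.46 and 3.44. The levels of these genes relative to others therefore depended on which models took the reads.

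**Figure D3:**
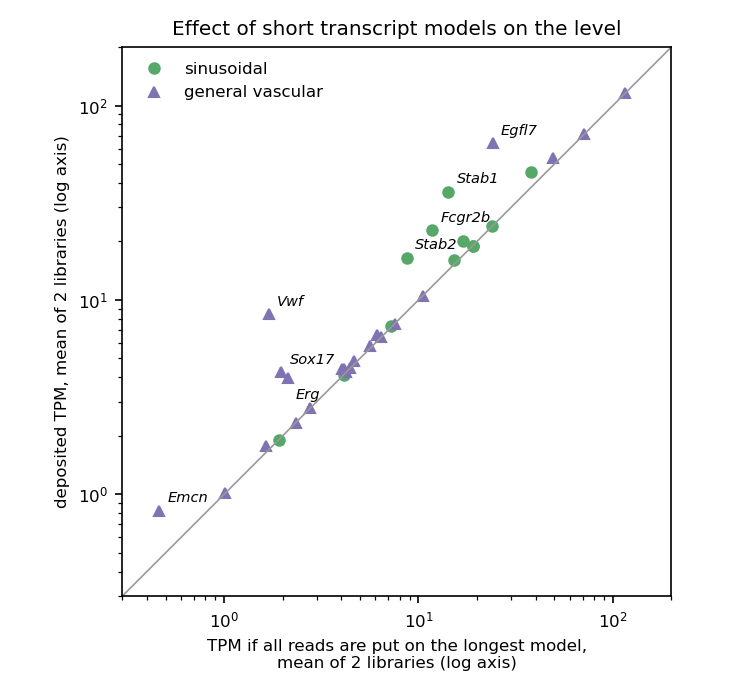
Deposited mean TPM of the 2 libraries against the TPM each member would have with all its reads on its longest transcript model, both on log axes, with the line of equality. Sinusoidal genes are circles and vascular genes triangles, and the named genes lie above the line, Vwf the furthest at 4.98 times.

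Of the members, 11 had 1 transcript model and 23 had several. At a mean of TPM 1 or more, 22 of the latter remained, and 21 had the same leading model by share of TPM in both libraries. The exception was Pecam1, led by Pecam1-207 in replicate 1 (41.86% of TPM, and 21.09% in replicate 2) and by Pecam1-203 in replicate 2 (37.36%, and 32.43% in replicate 1). By reads, 19 of the 22 had the same leading model, because Egfl7 and Vwf changed theirs as well. The leading models of the VEGF and angiopoietin receptors were the long coding ones. Kdr-201 held 93.81% and 95.88%, Flt1-202 held 86.98% and 81.2%, Tie1-201 held 88.04% and 79.53%, and Tek-201 held 66.57% and 54.92%. The rest of Flt1 was Flt1-203 at 13.02% and 18.8%, and the rest of Tek was Tek-202 at 33.43% and 45.08%. Flt4-201 held 98.25% and 97.51%. Eng was led by Eng-201 at 62.31% and 56.01%, ahead of Eng-205 at 25.53% and 27.18%. Nos3-201 held 100% in both libraries.

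Models annotated as not coding took above 10% of TPM in both libraries for 5 members, Stab1, Fcgr2b, Egfl7, Vwf and Sox17. For Stab1 they held 77.3% and 77.7% of TPM but 48.5% and 49.3% of reads. Its leading model, Stab1-204, is a retained-intron model of 1236 bases with 32.73% and 31.88% of TPM. Stab1-201, the full coding model of 7999 bases, had 20.03% and 19.98% of TPM and 51.1% and 50.4% of reads. Stab2 was led by a 3504-base model that M21 no longer lists, at 70.98% and 68.38% of TPM, ahead of the 8228-base Stab2-201 at 24.63% and 23.42%. For Vwf the 456-base Vwf-209 held 73.0% and 68.56% of TPM on 86.87 and 72.33 reads. Its long coding reads sat on an 8817-base model not in M21 in replicate 1 (459.28 of its reads, and 66.2 in replicate 2) and on the 8834-base Vwf-203 in replicate 2 (425.29 reads, and 0.06 in replicate 1). Together the long Vwf models held 64.4% and 68.3% of reads, so the exchange was between models of nearly equal length. Oit3-202, a retained-intron model of 422 bases, had 27.57% and 8.09% of TPM on 54.61 and 21.94 reads. Reads and TPM of Oit3 therefore gave different ratios.

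**Figure D4:**
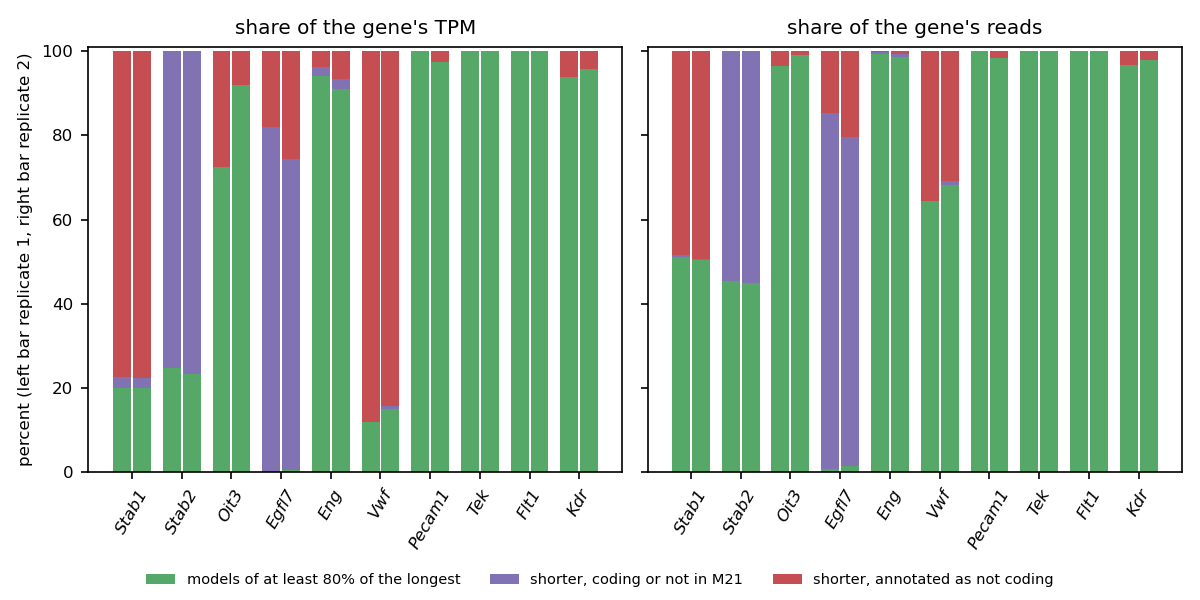
Share of a gene's TPM (left) and of its reads (right) held by models of at least 80% of the longest model's length, by shorter models that are coding or not in M21, and by shorter models annotated as not coding, with replicate 1 as the left bar and replicate 2 as the right bar of each gene. For Stab1 and Vwf the models of full length hold at most 20.03% and 14.96% of TPM but 50.4% or more of reads, while Tek and Flt1 are at 100% in both measures.

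Genes on the opposite strand overlapped some members. Agpat2, at 428.1 and 362.3 TPM, overlaps Egfl7, and Fpgs, at 403.6 and 356.63 TPM, overlaps Eng. The libraries are stranded per the labels, but whether counting used the strand is not stated in the sources, so the levels of Egfl7 and Eng are less certain than the others. Both neighbours were lower in replicate 2 in TPM, whereas Egfl7 and Eng were higher. The deposited counts of Egfl7 and Eng carried a posterior SD of 0 in both libraries, the score read here as read sharing. The part of the neighbours' reads in the levels or ratios of Egfl7 and Eng was not tested. Plvap overlaps Gtpbp3 (10.79 and 13.3 TPM), Stab1 overlaps Nt5dc2 (6.92 and 8.6) and Gpr182 overlaps Zbtb39 (4.48 and 5.13), all at lower levels than the member. No annotated gene overlaps 23 of the 34 members.

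Markers of other liver cells also differed between the libraries. All 11 Kupffer cell genes, of the resident macrophages, were called higher in replicate 2, where 28% of all genes tested were. Their median log2 ratio was 0.73 (range 0.41 to 1.22). Their summed level was 226 and 382 TPM in replicates 1 and 2, led by C1qc at 55.53 and 89.82 TPM and C1qb at 47.51 and 76.41. Macrophages can also transcribe Stab1, Fcgr2b and Lyve1, 3 of the 4 members called at 1.5-fold. The members listed as known from other cells were Stab1, Fcgr2b, Lyve1, Gata4, Klf2, Aqp1, Bmp2, Vwf, Egfl7 and Eng. Without them, the 7 sinusoidal genes left had a median log2 ratio of 0.28. Of these, 6 were called higher in replicate 2, 1 in replicate 1 and 0 at 1.5-fold. The 17 vascular genes left had a median of 0.16. The genes left, Pecam1 of platelets and endothelium among them, need not be confined to endothelium. The part of macrophage RNA in the members' ratios was not tested.

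Of the red cell genes, 4 of 5 were called higher in replicate 2 and 1 in replicate 1, with a summed level of 1290 and 2110 TPM, led by Hba-a2 at 504.8 and 746.54 and Hbb-bs at 395.08 and 655.3. Lymphocyte genes summed to 5.72 and 12.67 TPM, with 3 of 7 called higher in replicate 2 (5 of 7 by the other scalings), among them Cd79a and Cd79b, which encode the signalling chains of the B cell receptor. Of the platelet genes, 3 of 6 could be tested and all 3 were called higher in replicate 2. Ppbp, with 2 and 56 reads, passed the read filter through replicate 2. The whole platelet list summed to 4.9 and 9.92 TPM, led by Itga2b and Pf4. Those not tested had few reads in replicates 1 and 2, Gp1bb 16 and 0, Gp9 5 and 1, and Gp1ba 0 and 8. Over all genes tested, 28% were called higher in replicate 2 and 29.7% in replicate 1. By total reads the shares were 40.7% and 18%, and by spike-ins 44.1% and 15.8%. The summed levels of the blood and macrophage lists were thus higher in replicate 2, and their part in the members' ratios was not tested.

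The calls and medians of the other lists were mixed, although the summed level was higher in replicate 2 for several of them. Over all genes tested, 28% were called higher in replicate 2 and 29.7% in replicate 1 (44.1% and 15.8% by spike-in totals). Stellate cell genes had a median of -0.09, with 4 of 10 called higher in replicate 2 and 3 in replicate 1, and summed to 429 and 467 TPM, mostly Ecm1 and Dcn. Smooth muscle genes gave 1 of 6 higher in replicate 2 and 2 in replicate 1 (sum 25.1 and 31.3 TPM, led by Mylk and Tagln). Bile duct genes gave 0 and 2 of 5 tested (sum 21.2 and 18.7 TPM, led by Spp1 and Krt19). All 3 mesothelial genes were called higher in replicate 1, at a median of -1.13 and sums of 4.38 and 2.55 TPM, led by Upk3b and Msln. Hepatocyte genes, led by Alb and Ttr, gave 1 of 6 called higher in replicate 2 and 5 in replicate 1, at a median of -0.19 and sums of 54572 and 56010 TPM. Of the lymphatic genes, Prox1, which hepatocytes also transcribe, stood at 18.64 and 19.76 TPM but was called higher in replicate 1 from its scaled reads (log2 ratio -0.11, adjusted p = 0.000211, exact test). Ccl21a, at 1.1 and 1.79 TPM, was not called. Some of these directions turned with the scaling. By spike-in totals the stellate median was 0.07, smooth muscle genes gave 2 higher in replicate 2 and 1 in replicate 1, lymphatic genes 1 and 0, and hepatocyte genes 3 and 3, and 2 of the 3 mesothelial genes were still called higher in replicate 1.

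**Figure D5:**
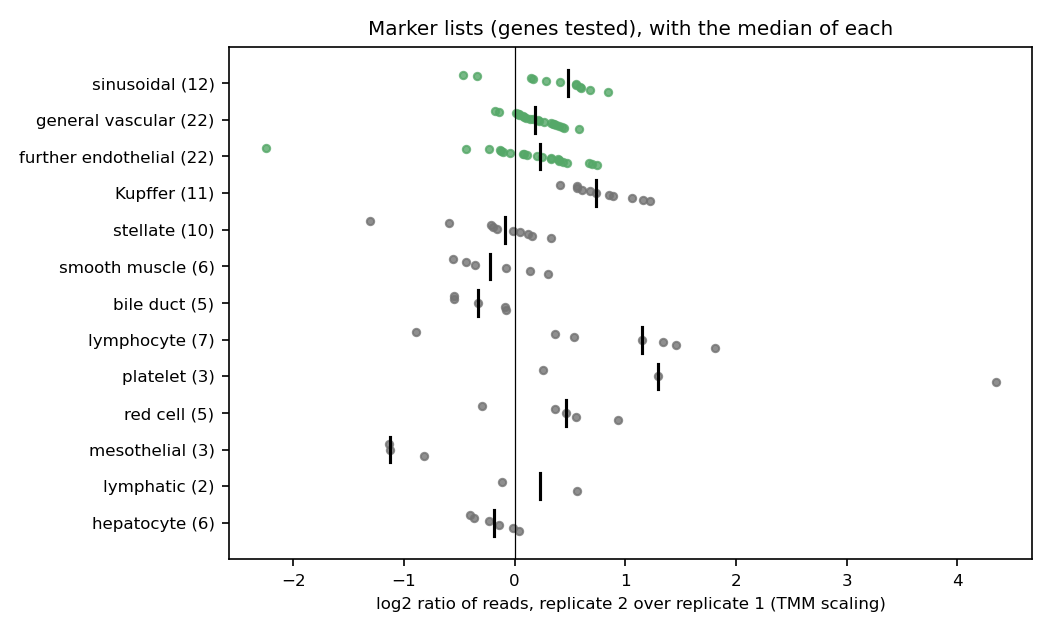
Log2 ratio of reads, replicate 2 over replicate 1 under TMM scaling, for each gene tested on the endothelial lists (green) and on the lists of other cell types (grey), with the median of each list as a bar. The sinusoidal median is 0.48, the general vascular median 0.19 and the Kupffer median 0.73, and 3 mesothelial genes lie to the left of 0.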

How the data were processed

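Poly-A RNA-seq of 2 liver libraries of 1 group was used, grouped by the labels' replicate numbers. Per the file headers and accompanying notes, quantification by the authors used mm10 and GENCODE M4. The sources used here name no aligner and no quantifier. Expected counts, as deposited, are estimated reads per gene or model and need not be whole. The deposited TPM values are estimates per effective length, spike-ins included in the total. The deposited percent is a model's share of its gene's TPM. The deposited posterior SD of a count was read as a score of read sharing. Splice junctions and contigs, on mm9, were not used.

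Names and coordinates came from GENCODE M21, and 42462 of 43346 genes matched. Counts were rounded, scaled by TMM (edgeR 4.0.16, R 4.3.3), and tested by the exact conditional binomial test (scipy 1.17.1) with Benjamini-Hochberg adjustment at 0.05 for genes with 20 reads or more in both libraries together. Log2 ratios carry a prior of 0.5 reads. The test and the Poisson intervals cover counting error only, since reads are not independent molecules. Sequences are from RefSeq. The members and lists were chosen with earlier results of these data known. The text names all members, the 2 most abundant genes of every other list, and up to 2 more partners where a ligand or receptor is discussed. Jag2, Rspo3, Cd36, Sox7, Ppbp, Gp9, Gp1bb and Gp1ba were named after their values were seen. Alternatives were other scalings (total reads, spike-ins, DESeq2 1.42.0 size factors), filters, priors, fold and TPM thresholds, longest-model TPM, and leaving out a library or the genes known from other cells.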

Additional observations from a re-analysis of the deposited data

How the results depend on the processing

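No paired analysis was possible because the 2 libraries form 1 group. Among all 34 members, DESeq2 size factors and the absence of a read filter changed no call. Total-read scaling added 3 calls higher in replicate 2 (Ptprb, Tek and Mmrn2), and spike-in scaling added 5 (these and Pecam1 and Icam2). Over all genes tested, 28% were called in that direction under TMM, 40.7% by total reads and 44.1% by spike-ins. Spike-in scaling also ended the call of Plvap and turned the log2 ratio of Vwf from -0.14 to 0.021. A filter of 200 reads left Emcn untested. With at least 1.5-fold demanded, 4 members were higher in replicate 2 and 0 in replicate 1, beside 10.7% and 5.94% of all genes tested. Without genes known from other cells, the sinusoidal share of TPM was 0.0151% and the vascular share 0.0188%. The vascular share was 0.0470% when only nuclear protein-coding genes made up the total. Leaving out each library in turn gave 0.0196% to 0.0268% for the sinusoidal share, 0.0355% to 0.0423% for the vascular share, and 32 to 33 members detected. At TPM 5 the members detected in both libraries numbered 19, and at a mean TPM of 10 the members with the same leading model numbered 9 of 9. The sinusoidal median log2 ratio ranged from 0.28 to 0.64 and the vascular one from 0.16 to 0.34 over the alternatives run. The 2 libraries give 1 difference per gene, so no spread between conditions could be had, and Emcn rests on few reads.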
